A study of Rattus norvegicus with 59 samples.

Results

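Kap encodes the kidney androgen-regulated protein, and its messenger RNA was followed in whole kidneys of Fawn-Hooded Hypertensive (FHH) rats over 3 ages, both treatments and both sexes. All probes annotated to the symbol Kap were taken; this was 1 probe of the 22523 on the array and 1 gene of the 13337 with a named probe. The gene had been picked on these data for its difference between PDTC and untreated females at 2 weeks, so that difference is described here without a test. The study used 59 Illumina RatRef-12 arrays, 1 per kidney sample, in 12 groups. PDTC (pyrrolidine dithiocarbamate), an inhibitor of NF-kB, was given to the dams at 150 mg/L of drinking water from 2 weeks before until 4 weeks after birth, and the untreated groups were FHH rats of the same age and sex. All groups thus share the hypertensive strain, and no other strain was included. At 2 days there were 4 PDTC males, 5 untreated males, 4 PDTC females and 5 untreated females. At 2 weeks there were 4 PDTC males, 6 untreated males, 6 PDTC females and 5 untreated females. The adult groups had 5 rats each, with males of 36 weeks and females of 42 weeks, so that sex and age in weeks cannot be told apart in adults. Pups of 2 days and 2 weeks were sampled while their dams were still treated, whereas the adults were sampled long after. No source used here says which rats were littermates; the p-values therefore cover the spread between samples, part of which may be shared by litters.

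Kap is a small protein made in quantity by proximal tubule cells, the cells that take back most of the filtered load. In mice, androgens induce it in the convoluted part of the proximal tubule, while in the straight part it depends on thyroid and pituitary hormones instead, and the mouse protein binds cyclophilin B, the product of Ppib. Its gene in the rat (NCBI gene ID 24937, transcript NM_052802) lies on chromosome 4 from 168405981 to 168409032 on the minus strand of assembly GRCr8. The 250 bases before the gene start are shown because the gene is named for a steroid response, read from the minus strand of chr4:168409033-168409282 and credited to RefSeq. Capitals mark a half-site of the glucocorticoid receptor class (AGAACA) and a half-site of the kidney and liver factor HNF1 (GTTAAT).
Kap upstream region: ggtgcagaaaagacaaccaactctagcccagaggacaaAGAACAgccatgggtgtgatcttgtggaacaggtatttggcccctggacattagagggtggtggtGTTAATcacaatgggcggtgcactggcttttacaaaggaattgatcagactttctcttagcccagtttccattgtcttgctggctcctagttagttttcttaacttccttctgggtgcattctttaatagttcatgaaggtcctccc
The AGAACA half-site starts 212 bases before the gene start, and 17.5% of 33469 promoter windows of this length hold one on either strand. The GTTAAT half-site starts 147 bases before it and is held by 6.45% of the windows; this motif was searched after the sequence had been read. Neither the full palindrome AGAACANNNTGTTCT, held by 0.012% of windows, nor TATAAA, held by 12.9%, is in this window. These are matches of letters only, and the reference strain is not FHH.

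Kap was above background on all 59 arrays, at 4.05 to 416 times the background level of the array. Between 9139 and 12488 probes per array were above background, and no pair of arrays held the same values. Pups were hybridised on slides 1 to 6 and adults on slides 7 to 10, except that untreated male 6 of 2 weeks was on slide 8 with adults. Over all probes that array lay between the ages. Differences of Kap between 2 groups that use it are also given without it, while counts and combined differences are given with it. Markers of proximal tubule, thick ascending limb and collecting duct were above background in every group. The adrenal genes Cyp11b1 and Cyp11b2 were above background on no array, but the listed adrenal genes Cyp17a1, Star and Cyp21a1 were each above it on at least 4 arrays. Of 4 fat genes with a probe Lep was above background on none, while the sum of the fat genes ranged from 621 to 13656 on the 2-week arrays. None of the 6 sex-chromosome genes listed to check the labels has a named probe. The organic anion transporter Slc22a7, more abundant in female than male rat kidney, was at log2 5.20 to 7.45 on the 10 adult male arrays and at 8.96 to 11.7 on the 10 adult female arrays, with no overlap.

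Kap stood at its lowest in newborns and at its highest in adults in every treatment and sex. On the log2 scale of the normalized intensities the 18 arrays of 2 days lay at 7.56 to 9.75, the 21 arrays of 2 weeks at 11.94 to 13.92 and the 20 adult arrays at 13.81 to 15.12. The arrays of 2 days thus shared no value with those of 2 weeks, and 1 array of 2 weeks lay above 1 adult array. The deposited signals, before any normalization, were 342 to 1983 at 2 days, 2626 to 21872 at 2 weeks and 5658 to 31499 in adults. The brightest probe of an array had a signal of 22142 to 60014. The order of the 12 group means, from low to high, ran through PDTC males (8.46 ± 0.76, n = 4), untreated males (8.91 ± 0.47, n = 5), PDTC females (9.21 ± 0.45, n = 4) and untreated females (9.31 ± 0.16, n = 5) at 2 days. It went on through PDTC females (12.33 ± 0.22, n = 6), PDTC males (12.60 ± 0.38, n = 4), untreated males (12.67 ± 0.37, n = 6) and untreated females (13.19 ± 0.41, n = 5) at 2 weeks. It ended with PDTC females (14.59 ± 0.48), untreated males (14.61 ± 0.35), PDTC males (14.86 ± 0.34) and untreated females (15.01 ± 0.05) among adults (all SD, n = 5 each in adults). Of the 11 steps between neighbours in this order, 1 had ranges that did not overlap, the step of 3.02 from untreated females of 2 days to PDTC females of 2 weeks. Within an age no neighbours were apart by more than their ranges, and the step of 1.40 to the adult groups overlapped through 1 array on either side.

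**Figure D1:**
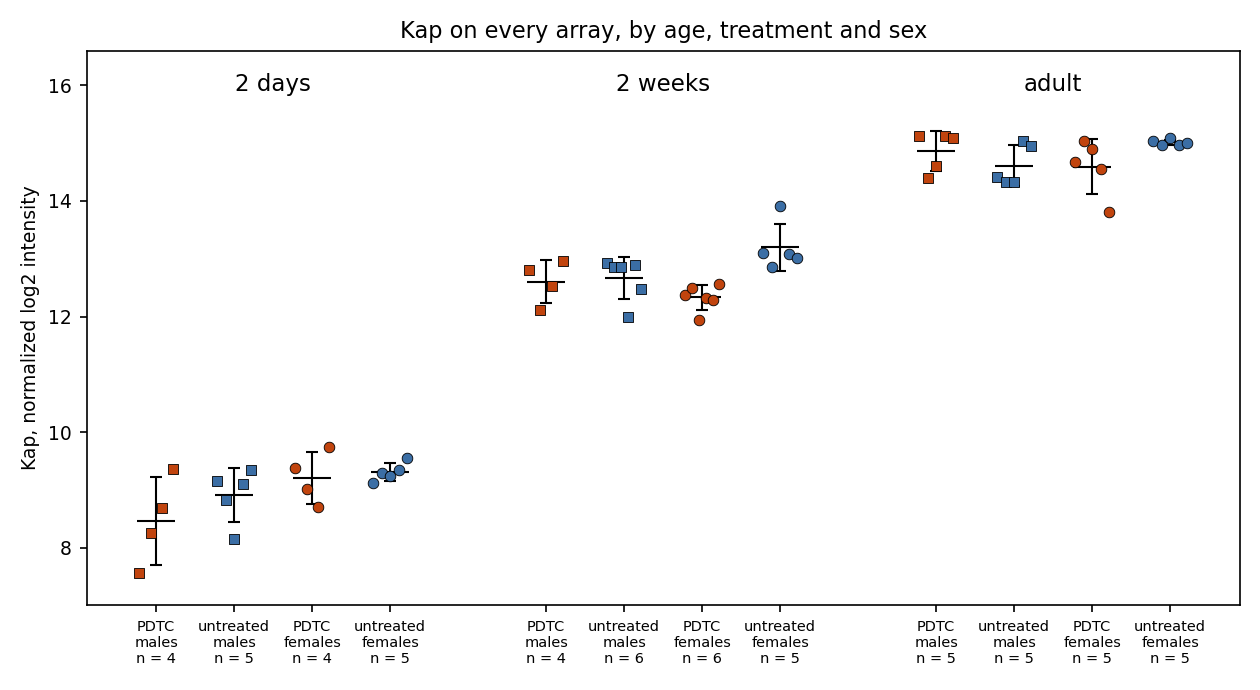
Normalized log2 intensity of Kap (vertical axis) on each of the 59 arrays, grouped by age, with PDTC left of untreated and males left of females. Points are arrays, horizontal marks are group means and bars are SD; the ages are far apart, with 7.56 to 9.75 at 2 days, 11.94 to 13.92 at 2 weeks and 13.81 to 15.12 in adults, while groups within an age largely overlap.

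The first comparison asked how Kap changes with age in untreated rats. Kap rose steeply between 2 days and 2 weeks and again by adulthood, by similar amounts in males and females. In untreated males of 2 weeks the lowest, median and highest values were 12.00, 12.86 and 12.92, against 9.16, 8.83, 8.14, 9.10 and 9.35 in the males of 2 days. The difference was 3.75 ± 0.21 (SE; 13.5-fold; adjusted p 3.2e-11, limma with Benjamini-Hochberg adjustment over 13378 probes), where 24.2% of all probes passed, and 5 probes rose more. In untreated females of 2 weeks Kap was at 13.10, 12.86, 13.92, 13.07 and 13.02, against 9.12, 9.28, 9.25, 9.34 and 9.56 in the females of 2 days. Every 2-week female was above every newborn female, and the difference was 3.89 ± 0.22 (14.8-fold; adjusted p 3.07e-11), where 23.9% of probes passed and 3 rose more. The untreated females of 2 weeks are also 1 of the 2 groups that chose Kap, so the comparisons of female ages, and of the sexes between ages, are not independent of that choice; without the highest of these females this difference was 3.70. On the slides that held both ages the rise was seen on 4 of 4 in males, at 2.90 to 4.72, and on 3 of 3 in females, at 3.57 to 4.67. Without untreated male 6, the array between the ages, the male difference was 3.79. In bulk tissue more cells of a type and more RNA per cell cannot be told apart.

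Untreated adult males had Kap at 14.41, 14.33, 14.33, 15.04 and 14.95, above all 6 males of 2 weeks. They were 1.95 ± 0.20 above the 2-week males (3.86-fold; adjusted p 7.3e-08), where 45.9% of 13114 probes passed and 213 rose more. Untreated adult females had Kap at 15.04, 14.97, 15.08, 14.97 and 15.00, above all 5 females of 2 weeks. They were 1.82 ± 0.21 above them (3.53-fold; adjusted p 3.74e-07), where 51.7% of probes passed and 261 rose more, and 2.00 above them without the highest 2-week female. Slide and age were nearly the same split here, so that slide and age cannot be told apart; untreated male 6, on slide 8, lay 1.94 below the adult male on that slide, and without it the male difference was 1.91. The narrow spread of adult females belongs to the normalized scale, on which quantile normalization gives all arrays 1 set of values: their deposited signals ranged from 14274 to 26883. Scaling each array to 1 median instead put the median probe 0.49 lower in adult than in 2-week males and 0.66 lower in females, and on that scale Kap was 1.66 higher in adult males and 1.56 higher in adult females. On adult arrays 9139 to 10864 of the 22523 probes were above background, so the median probe used for this scaling was not above background there. On 2-week arrays 10665 to 12488 probes were above background. The effect of this limit on scaled values was not tested. The sex difference of the rise did not pass between 2 days and 2 weeks (males minus females -0.13 ± 0.31, interval -0.77 to 0.50, adjusted p 0.999) or between 2 weeks and adults (0.13 ± 0.29, interval -0.47 to 0.72, adjusted p 0.976).

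The genes around Kap were taken from 6 lists of 57 genes: androgen-responsive kidney genes of rodents, hormone receptors and regulators, steroid enzymes with Ppib, and proximal tubule genes of early, straight and all segments. Of these 49 had a probe. Between 2 days and 2 weeks 25 of 47 measured genes rose and 0 fell in untreated males, and 25 rose and 0 fell in females, while over all probes 10.3% rose and 13.8% fell in males and 10.8% rose and 13.1% fell in females. After scaling to 1 median 11 rose and 0 fell in males, where 3.91% of all probes rose and 5.2% fell, and 20 rose and 0 fell in females, where 5.97% of all probes rose and 4.1% fell. The genes with the smallest p in males were Slc22a7 (2.68 ± 0.17), the cortisol-inactivating enzyme Hsd11b2 (1.72 ± 0.14), the water channel Aqp1 (1.08 ± 0.11), the organic cation transporter Slc22a2 (1.50 ± 0.17) and Slc7a13, an amino acid transporter of the straight segment (1.32 ± 0.17). The same genes led in females, where the rises were 2.93 for Slc22a7, 1.31 for Hsd11b2, 1.09 for Aqp1, 1.64 for Slc22a2 and 1.39 for Slc7a13, and all of these passed (largest adjusted p 4.1e-06). Kap rose more than any of them in both sexes. Odc1 and Gusb, the ornithine decarboxylase and beta-glucuronidase genes that androgen induces in mouse kidney, did not pass: Odc1 differed by -0.01 in males and 0.13 in females, and Gusb by -0.35 in males and -0.32 in females (adjusted p from 0.078 to 0.98).

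Between 2 weeks and adulthood the lists split. In untreated males 21 of 46 rose and 9 fell, and in females 22 rose and 8 fell, where 22.3% of all probes rose and 23.7% fell in males and 25.6% rose and 26.1% fell in females. After scaling to 1 median these counts were 3 higher and 15 lower in males, where 6.95% of all probes were higher and 42.2% lower, and 4 higher and 11 lower in females, where 8.75% were higher and 51.8% lower. The balance of the lists thus moved with that of all probes, while Kap was higher in adults on both scales. Hsd11b1, the enzyme that regenerates active glucocorticoid, rose by 3.38 ± 0.17 in males and 2.85 ± 0.18 in females, more than Kap. Angiotensinogen (Agt) rose by 2.53 ± 0.29 and the fatty acid hydroxylase Cyp4a2 by 1.83 ± 0.26 in males, and the endocytic receptor Cubn by 1.25 ± 0.14 in females, where scaling to 1 median gave 0.56 and no call. The thyroid hormone receptor gene Thra fell by 1.37 in males and by 1.07 in females. Slc22a7 fell by 2.40 in males and rose by 2.14 in females. Odc1 was 1.27 ± 0.28 higher in adult males (adjusted p 0.0011), though it did not pass after scaling to 1 median, and 2.54 ± 0.30 higher in adult females (adjusted p 4.9e-07). Gusb differed by -0.47 in males (adjusted p 0.069) and fell by 0.86 in females (adjusted p 0.0025). Levels of genes listed for other cell types moved as well. Of the 5 fibroblast and smooth muscle genes 2 had a probe, Col1a1 and Dcn, and Pdgfrb, Acta2 and Myh11 had none. The sum of these 2 was 3204 to 5812 in adult and 7214 to 12824 in 2-week untreated males. It was 2687 to 3845 in adult and 7753 to 11552 in 2-week untreated females. The sum of the 4 of 6 leukocyte genes was 3147 to 8490 in adult and 650 to 1356 in 2-week untreated males, and 3915 to 7172 in adult and 598 to 768 in 2-week untreated females. The sum of the 9 of 10 genes of all proximal tubule segments was 76919 to 100676 in adult and 52734 to 74577 in 2-week untreated males. The part of these shifts in the rise of Kap was not tested.

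**Figure D2:**
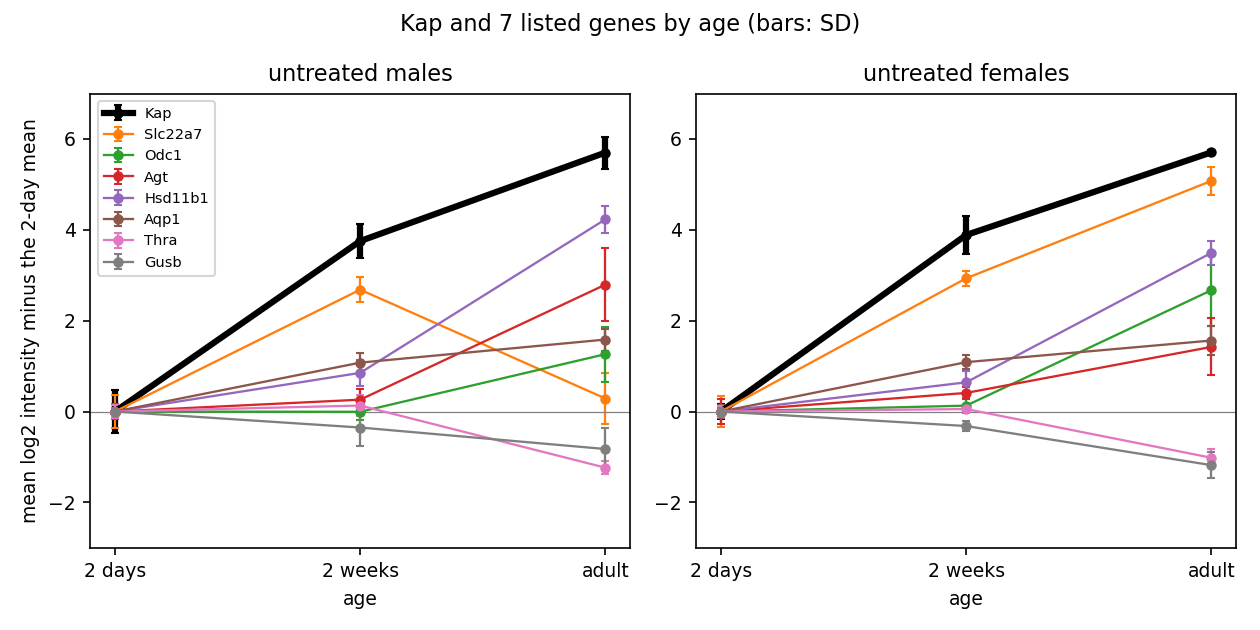
Mean log2 intensity minus the 2-day mean (vertical axis) at 3 ages (horizontal axis) in untreated males (left) and females (right) for Kap (black) and 7 listed genes; points are group means of 5 or 6 arrays and bars are SD. Kap has the highest point at 2 weeks and in adults in both panels, and Slc22a7 falls after 2 weeks in males and rises in females.

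The second comparison was between males and females. Kap did not pass the test in any of the 6 comparisons of the sexes, although its name comes from a male hormone. Untreated adult males had 14.41, 14.33, 14.33, 15.04 and 14.95, against 15.04, 14.97, 15.08, 14.97 and 15.00 in untreated adult females. On this scale, of the 5 males, 4 lay below all females and 1 lay among them, with a difference of -0.40 ± 0.22 (interval -0.86 to 0.05, adjusted p 0.571), where 1.34% of 11701 probes passed. The sign was the same on 4 of 4 slides. In deposited signal only untreated males 2 and 3 (11090 and 11688) lay below all untreated females, whose lowest was 14274. After scaling to 1 median the same males (13.93 and 13.86) alone lay below the lowest untreated female (14.36). Adult PDTC males had 15.12, 14.40, 14.60, 15.12 and 15.08, against 14.67, 15.04, 14.89, 14.55 and 13.81 in adult PDTC females, and these ranges overlapped. Here the difference was 0.27 ± 0.22 (interval -0.18 to 0.73, adjusted p 0.604), where 0.752% of probes passed, and 0.08 without PDTC female 5.

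In pups Kap was lower in males than females on average in most of the comparisons, without passing. At 2 weeks untreated males minus females was -0.53 ± 0.20 (adjusted p 0.971), with 6 of 6 males below the mean of the females, though ranges overlapped. This comparison shares its untreated females with the one that chose Kap and is no independent evidence, and it was -0.35 without untreated female 3 and -0.49 without untreated male 6. At 2 weeks PDTC males minus females was 0.27 ± 0.21 (interval -0.16 to 0.71), at 0.15 without PDTC male 4 and 0.43 without PDTC male 2. This comparison shares its PDTC females with the one that chose Kap and is no independent evidence either. At 2 days the difference was -0.74 ± 0.31 in PDTC pups (interval -1.41 to -0.08) and -0.40 ± 0.28 in untreated pups (interval -0.99 to 0.20), each with the sign on 3 of 3 slides. It was -0.44 in PDTC pups without PDTC male 1, and -0.20 in untreated pups without untreated male 3. All adjusted p-values in pups were at least 0.971, and 0% of probes passed in each of the 4 comparisons of sexes in pups (limma), where 80 to 368 probes had an unadjusted p under 0.05.

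In adults the listed genes differed in both directions between the sexes. Untreated males had 1 gene higher and 2 lower of 45 measured. Slc22a7 differed by -4.65 ± 0.40 on the log2 scale (adjusted p 4.1e-07), Cubn by -0.82 ± 0.18 (adjusted p 0.020) and Cyp4a2 was 1.24 ± 0.30 higher (adjusted p 0.047), where 0.598% of all probes were higher and 0.744% lower. The calls of Cubn and Cyp4a2 were lost after scaling to 1 median. That of Cubn was also lost with the slide as a fixed block or when 1 of 4 of the 10 arrays was left out. That of Cyp4a2 was also lost when no filter was used or 1 of 8 of the 10 arrays was left out. Hsd11b1 differed by 0.68 (adjusted p 0.058), the liver and kidney factor Hnf4a by -1.58 (adjusted p 0.079), Odc1 by -1.33 (adjusted p 0.19) and Gusb by 0.33 (adjusted p 0.59). Among adult PDTC rats 2 genes were higher and 1 lower in males, where 0.427% of all probes were higher and 0.325% lower. Slc22a7 differed by -3.28 ± 0.40 (adjusted p 6.5e-05), Hsd11b1 was 0.89 ± 0.17 higher and Cyp4a2 was 1.56 ± 0.30 higher (adjusted p 0.013 each). The last 2 calls were lost after scaling to 1 median or without PDTC male 5. Agt differed by 1.61 (adjusted p 0.066), the steroid dehydrogenase Hsd17b2 by -1.56 (adjusted p 0.13), Gusb by 0.13 and Odc1 by 0.18.

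**Figure D3:**
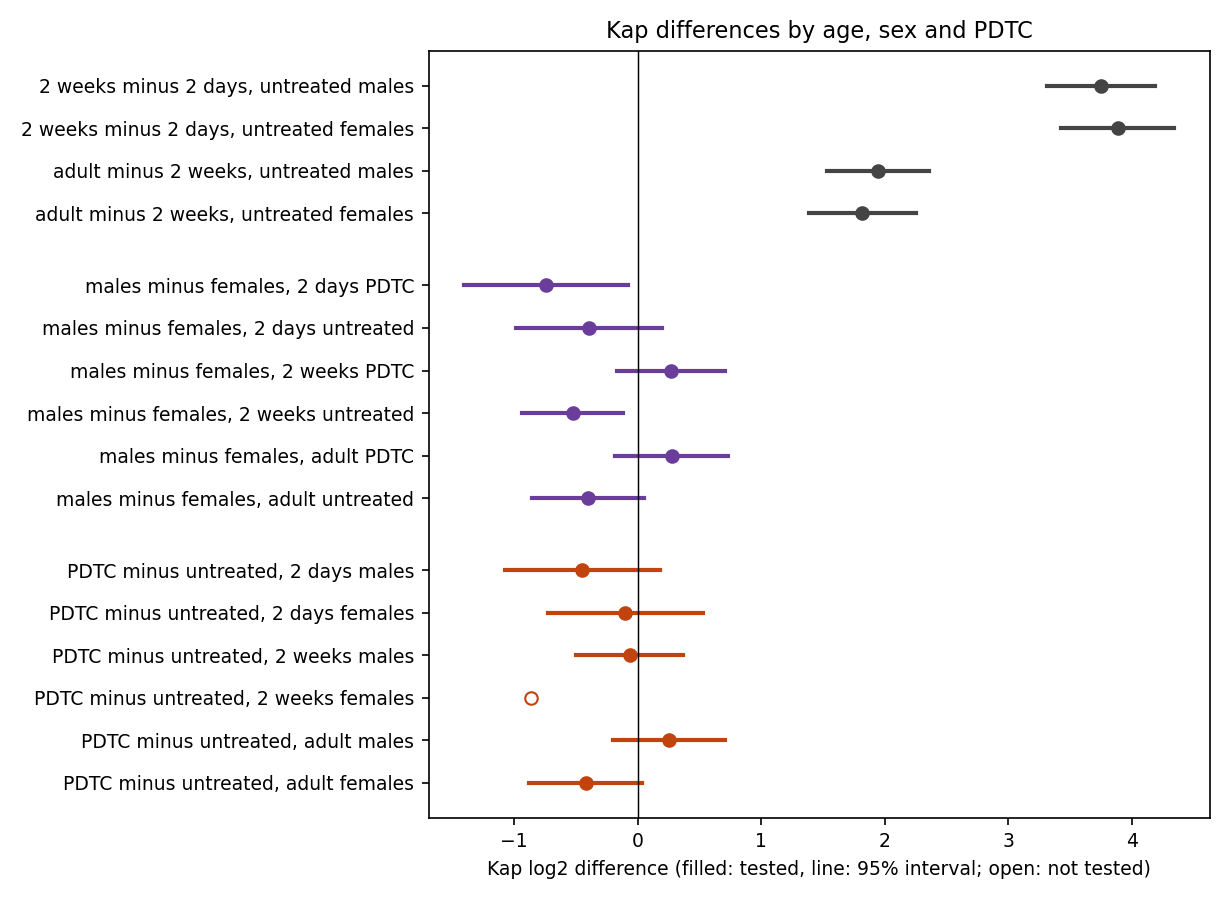
Differences of Kap on the log2 scale (horizontal axis) with 95% intervals where tested, for the comparisons of ages (grey), sexes (purple) and PDTC with untreated (orange). Filled points were tested and the open point, PDTC minus untreated females of 2 weeks, chose the gene and was not tested; the age differences lie between 1.82 and 3.89, and the others between -0.86 and 0.27.

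The third comparison set the offspring of PDTC-treated dams against untreated rats. At 2 days Kap did not pass in either sex. PDTC males had 7.56, 8.25, 8.69 and 9.36, against 9.16, 8.83, 8.14, 9.10 and 9.35 in untreated males. PDTC males spread over both sides of the untreated ones, and the difference was -0.45 ± 0.30 (interval -1.08 to 0.18, adjusted p 0.590, 0% of 13163 probes passed), at -0.15 without PDTC male 1 and at -0.75 without PDTC male 4. Its sign was negative on 1 of 3 shared slides, at -1.27 to 0.54. PDTC females had 9.37, 9.01, 8.71 and 9.75, against 9.12, 9.28, 9.25, 9.34 and 9.56 in untreated females, a difference of -0.10 ± 0.30 (interval -0.73 to 0.53, adjusted p 0.966). Both sexes together gave -0.28 ± 0.21 (adjusted p 0.550), and the effect in males minus that in females was -0.35 ± 0.42. These were -0.13 and -0.05 without PDTC male 1, and -0.43 and -0.65 without PDTC male 4. No listed gene passed (0 of 45 in each sex, with 1476 probes in males and 968 in females at an unadjusted p under 0.05). The smallest p-values in males were those of Cyp4b1, a fatty acid hydroxylase (-0.50), the dipeptidase Dpep1 (-0.83), Hsd11b2 (0.38), Thra (0.27) and Slc7a13 (0.34). In females they were those of Cyp4b1 (-0.42), the steroid dehydrogenase Hsd17b11 (-0.30), the bicarbonate transporter Slc4a4 (1.25), Gusb (0.15) and Slc7a13 (0.22). Gusb differed by 0.18 in males, and Odc1 by -0.07 in males and 0.05 in females.

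At 2 weeks Kap was lower in PDTC than untreated females, which is the difference that chose it. PDTC females had a lowest, median and highest value of 11.94, 12.34 and 12.56, against 13.10, 12.86, 13.92, 13.07 and 13.02 in untreated females. All 6 PDTC females lay below all 5 untreated females, and the difference was -0.86 ± 0.20 (1.82-fold lower). Over all 13360 probes 0% passed the adjusted threshold (limma), and 422 had an unadjusted p under 0.05. On the 5 slides that held both groups, PDTC minus untreated was -0.72 on slide 1, -0.36 on slide 2, -1.61 on slide 4, -0.79 on slide 5 and -0.45 on slide 6. These values belong to the choice of the gene, and slide 4 held untreated female 3, the highest array of its age. Without that array the difference was -0.68. At the edge of the groups, the highest PDTC female (12.56) and the lowest untreated female (12.86) were 0.30 apart.

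The males of 2 weeks were not used to choose the gene. PDTC males had 12.81, 12.11, 12.52 and 12.96, against a lowest, median and highest value of 12.00, 12.86 and 12.92 in untreated males. The ranges overlapped almost fully, and the difference was -0.07 ± 0.21 (interval -0.50 to 0.37, adjusted p 0.963), at -0.10 without untreated male 6. Its sign was negative on 2 of 3 shared slides, at -0.74 to 0.96. The effect in males minus that in females, which contains the difference that chose Kap, was 0.80 ± 0.29 and both sexes together gave -0.47 ± 0.14, each given as a description. On average untreated females stood above the 3 other groups of 2 weeks, which had means of 12.33 to 12.67, but they are 1 of the 2 groups that chose Kap. Their lowest value, 12.86, lay below the highest untreated male (12.92) and the highest PDTC male (12.96).

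No listed gene passed at 2 weeks (0 of 47 in each sex). In females the smallest p-values were those of Agt (-0.21), Slc22a7 (-0.26), Slc22a2 (-0.30), Dpep1 (-0.30) and the hydroxyacid oxidase Hao2 (-0.26), with Gusb at 0.16 and Odc1 at -0.07. In females the median difference was -0.11 in the list of androgen-responsive genes, -0.15 in the straight segment list and -0.11 in the list of all proximal tubule segments, against 0.00 over all probes. Medians of the remaining lists and of males are not given here. No list was tested as a set, and the female comparison is the one that chose Kap. In males the smallest p-values were those of the thyroid hormone receptor gene Thrb (-0.52), Hao2 (0.26), Slc4a4 (0.64), the regulator Cebpb (-0.29) and Thra (0.16). There Gusb was at 0.18 and Odc1 at -0.06. The sum of the 9 genes of all proximal tubule segments was 45143 to 72224 in PDTC females and 56038 to 73814 in untreated females. The sum of the 4 fat genes was 621 to 8691 in PDTC females and 1383 to 5373 in untreated females, and that of the 2 fibroblast and smooth muscle genes was 8367 to 10657 in PDTC females and 7753 to 11552 in untreated females. Each of these ranges overlapped, and their part in the difference of Kap was not tested.

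**Figure D4:**
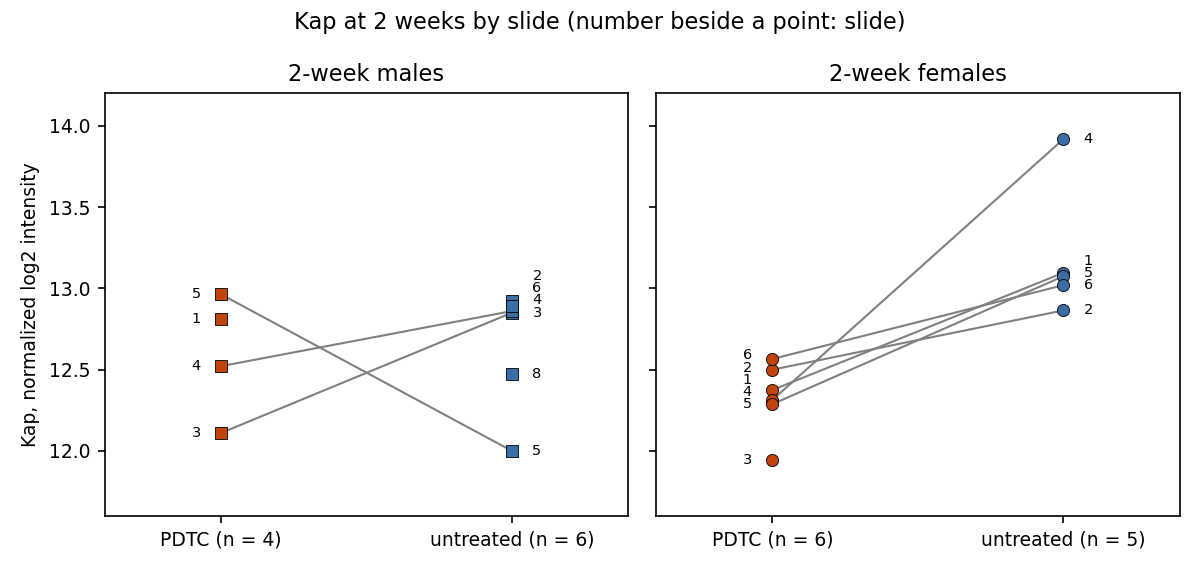
Normalized log2 intensity of Kap (vertical axis) at 2 weeks in PDTC and untreated males (left) and females (right); points are arrays, the numbers beside them are slides, and grey lines join groups that shared a slide. In females all 5 lines rise towards the untreated side, with PDTC at 11.94 to 12.56 and untreated at 12.86 to 13.92, while in males the lines go both ways.

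In adults, whose exposure had ended in early life, Kap did not pass in either sex. PDTC males had 15.12, 14.40, 14.60, 15.12 and 15.08, against 14.41, 14.33, 14.33, 15.04 and 14.95 in untreated males. The difference was 0.25 ± 0.22 (interval -0.20 to 0.71, adjusted p 0.752, 0% of 11701 probes passed), with the sign on 4 of 4 slides and 3 of 5 PDTC males above the mean of the untreated ones. PDTC females had 14.67, 15.04, 14.89, 14.55 and 13.81, against 15.04, 14.97, 15.08, 14.97 and 15.00 in untreated females. In that case 4 of 5 PDTC females lay below the mean of the untreated ones, and the difference was -0.42 ± 0.22 (interval -0.88 to 0.03, adjusted p 0.798) with the sign on 3 of 4 slides. It was -0.23 without PDTC female 5, the lowest adult array. The effect in males minus that in females was 0.67 ± 0.31 (interval 0.03 to 1.32, adjusted p 0.630), and both sexes together gave -0.09 ± 0.15 (adjusted p 0.929).

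None of the 45 listed genes measured passed in adult PDTC rats (unadjusted p under 0.05 for 945 of all probes in males). In males the smallest p-values were those of the amino acid transporters Slc7a9 (-0.62), Slc7a13 (1.60) and Slc7a7 (-0.57), the organic anion transporter Slc22a8 (-0.52) and the acyl-CoA synthetase Acsm3 (0.45), with Odc1 at 0.65 and Gusb at -0.01. In females they were those of the organic anion transporters Slc22a6 (-0.30), Slc22a7 (-0.80) and Slc22a8 (-0.42), the inositol oxygenase Miox (-0.45) and Odc1 (-0.87), with Gusb at 0.19. The sum of the 2 fibroblast and smooth muscle genes was 3412 to 4657 in PDTC and 3204 to 5812 in untreated males, and 2679 to 5800 in PDTC and 2687 to 3845 in untreated females. The sum of the 6 straight segment genes was 20034 to 54189 in PDTC and 20214 to 38544 in untreated males, and 18782 to 61364 in PDTC and 35095 to 54394 in untreated females. Their part in the adult values of Kap was not tested.

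Kap was also set against 9834 other named genes by Pearson's r. Over all 59 arrays the genes most like it were Hnmt (histamine N-methyltransferase), Fmo1 (a flavin monooxygenase), Folh1 (a folate hydrolase), Ttc36 and Dio1, the deiodinase that makes active thyroid hormone. Since arrays fall into 3 separate ages, no r over all arrays is given. Within 2 days, 2 weeks and adults, r with Kap was 0.87, 0.75 and 0.65 for Dio1 (n = 18, 21 and 20 arrays) but -0.30, 0.77 and 0.83 for Hnmt, 0.71, 0.68 and 0.10 for Fmo1, 0.26, 0.64 and 0.03 for Folh1, and 0.66, 0.57 and 0.28 for Ttc36. In untreated rats these 5 genes rose between 2 days and 2 weeks by 1.04 to 3.77 in males and 0.86 to 4.36 in females, and between 2 weeks and adults by 0.52 to 2.46 in males and 0.41 to 2.35 in females. After scaling to 1 median the second rise turned to a fall for Ttc36 in males and for Fmo1, Ttc36 and Dio1 in females, and did not for Kap, and the calls of Fmo1 (0.13), Folh1 (0.41) and Dio1 (0.07) in males and of Folh1 (0.37) in females were lost. Dio1 rose by 3.31 ± 0.13 in males and 3.26 ± 0.14 in females by 2 weeks.

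With the mean of each age taken off, the highest r over 59 arrays were those of Dio1 (0.77), Fmo4 (0.63), Fmo1 (0.58), the D-lactate dehydrogenase Ldhd (0.58) and the phosphatidylserine synthase Ptdss2 (0.57). The lowest were those of the collagen gene Col5a1 (-0.63), the calcium channel subunit gene Cacnb3 (-0.59) and Mcm6, a subunit of the replication helicase (-0.58). With the mean of each of the 12 groups taken off, the highest were Dio1 (0.73), Fmo4 (0.62), the GABA transporter Slc6a13 (0.61), Sugct (0.57) and the quinone reductase Cryz (0.57). In the same way r was 0.50 with the mean of the straight segment list and 0.49 with that of the androgen-responsive list. For the other lists it was 0.40 (all proximal tubule segments), 0.37 (steroid enzymes with Ppib), 0.32 (early segments) and 0.09 (hormone receptors and regulators). With the mean of the fibroblast and smooth muscle list r was -0.46, and with its measured genes -0.49 (Col1a1) and -0.16 (Dcn). With the median signal of the array r was 0.23, and with its background level 0.25.

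The adult arrays gave another set. Over the 20 adult arrays the genes with the highest r were the peptidase neprilysin (Mme), the organic anion transporter Slco1a6, Slc7a13, and Gclc and Gclm, which encode the subunits of the first enzyme of glutathione synthesis. On the normalized scale the adult arrays were cut at the largest step of Kap, leaving aside the single lowest array. This gave a lower set of 8, with Kap at 13.81 to 14.67, and an upper set of 12, with Kap at 14.89 to 15.12, so that no r over all adults is given. In deposited signal the sets overlapped, with the lower reaching 20587 and the upper starting at 13589. After scaling to 1 median they overlapped too, with the lower reaching 14.82 and the upper starting at 14.36. These sets were seen in the data and are not groups of the study: the lower one held 2 PDTC and 3 untreated males and 3 PDTC and 0 untreated females, and the upper one held 3 PDTC and 2 untreated males and 2 PDTC and 5 untreated females. Mme was at 8.61 to 9.90 in the lower and 10.02 to 11.25 in the upper set, Slco1a6 at 7.70 to 8.84 and 9.28 to 10.60, and Slc7a13 at 10.36 to 12.00 and 12.26 to 14.13, with no overlap. Gclm was at 11.79 to 12.28 and 12.58 to 14.03, also with no overlap, and Gclc at 11.84 to 13.97 and 13.65 to 15.04, which overlap. Within the lower set r with Kap was 0.58 for Mme, 0.72 for Slco1a6 and 0.58 for Slc7a13 (n = 8 arrays), and within the upper set it was 0.57, -0.01 and 0.43 (n = 12 arrays). For Gclc it was 0.52 in the lower and 0.36 in the upper set, and for Gclm 0.65 and 0.40. The points share their library, and among 9834 genes a high r is picked out by the choice itself. These genes were picked by r with Kap on the same arrays, and the sets were cut on Kap. The lack of overlap is therefore no separate evidence, and its share among the 9834 genes was not counted. In Slc7a13 the adult PDTC males were at 14.13, 11.26, 12.00, 13.89 and 14.13, against 10.36, 10.90, 10.72, 12.26 and 13.15 in untreated males. PDTC females were at 11.72, 13.97, 13.32, 11.75 and 10.87, against 13.74, 12.36, 13.67, 13.91 and 13.81 in untreated females. The PDTC and untreated rats overlapped in both sexes, and the PDTC female at 10.87 was the one with the lowest Kap. PDTC minus untreated was 0.86 in males and -0.78 in females for Mme, 0.69 and -1.23 for Slco1a6, 1.60 and -1.17 for Slc7a13, 0.71 and -1.17 for Gclc, and 0.59 and -0.82 for Gclm, and none of these passed (adjusted p from 0.60 to 0.80).

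**Figure D5:**
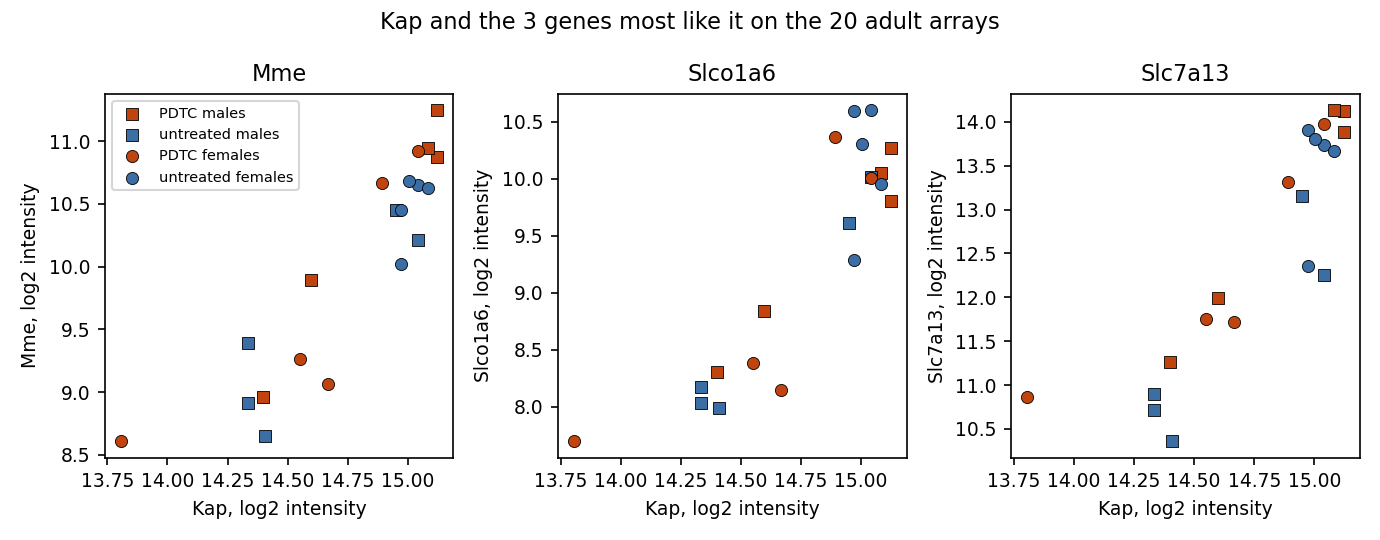
Normalized log2 intensity of Mme, Slco1a6 and Slc7a13 (vertical axes) against that of Kap (horizontal axes) on the 20 adult arrays; colour gives the treatment and shape the sex. On this scale the arrays were cut by Kap into a lower set of 8 and an upper set of 12. Rats of every group but the untreated females lie in both, and the 5 untreated females lie in the upper one.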

How the data were processed

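RNA of FHH rat kidneys was measured on Illumina arrays, 1 per sample. The authors deposited an intensity per probe and array, not normalized, with a detection p-value beside it per the file headers, and a value table of log2 values that follows quantile-normalized signals. The deposited p-value was two-sided, so each array's background level was set to the median over its 50 probes of highest p-value, with an SD from the signals below that level. Signals were corrected with normexp, 16 was added, and arrays were quantile-normalized and put on the log2 scale. A probe was tested if above background (one-sided normal p under 0.05) on at least 4 arrays of a fit.

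Groups came from the labels and slides from the column names; replicate numbers follow accession order. limma 3.58.1 in R 4.3.3 was fitted per age over 4 groups, and for ages over the 4 untreated groups of both, with Benjamini-Hochberg adjustment over all probes and a threshold of 0.05 (0.05 also for unadjusted p-values). The 24 comparisons of Kap were between treatments, sexes and ages and the differences of these. The 3 that contain the difference that chose Kap have no p-value. The others that use 2-week females, PDTC or untreated, share a group with it. The number of arrays limits the precision.

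Genes were named by the platform annotation: 13793 probes had 1 symbol and 8730 none. Where a gene had several probes, the one of highest mean stood for it. Named were, by rule, the genes with the highest (or lowest) r with Kap, and of the 6 lists the 5 genes with the smallest p with Odc1 and Gusb, in the comparisons of ages, of treatments in each sex and of adult sexes. Kap and the lists were chosen with earlier results of these data known. Alternatives were another background correction, scaling to 1 median, no filter, the deposited log2 values, array weights, 1 fit of all arrays, slides as blocks, without slide 6, and without each array; those for other genes than Kap were chosen after seeing the data. Fits were tested on simulated data. No Kap protein was analysed here.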

Additional observations from a re-analysis of the deposited data

Results flagged for a closer look

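Kap in untreated female 3 of 2 weeks, at log2 13.92, stood apart from the 4 others of its group, which were at 12.86 to 13.10: its gap to the nearest was a larger share of the range of the group than 5 samples give in about 19 of 20 groups. With 12 groups looked at, chance flags about 1 in 20 of them. Without this array PDTC minus untreated females of 2 weeks was -0.68 in place of -0.86, and untreated males minus females of 2 weeks was -0.35 in place of -0.53.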

How the results depend on the processing

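No paired analysis was possible because the replicate numbers follow accession order and pair no samples; values within shared slides and with the slide as a block were used instead. Of 198 alternatives to the 24 comparisons of Kap, other than leaving out 1 array, 194 kept direction and side of the threshold, as did 313 of 320 that left out 1 array; the rest turned the sign of small differences. With arrays scaled to 1 median, PDTC minus untreated Kap was 0.117 in 2-day females, 0.137 in 2-week males and 0.0054 in adults of both sexes, where array weights gave 0.014. Leaving out 1 array gave -0.282 to 0.065 in 2-day females, -0.199 to 0.098 in 2-week males and -0.142 to 0.013 in adults of both sexes, and -0.325 to 0.048 and -0.053 to 0.210 for the sex difference of the first and second rise with age.

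Named genes had 48 values that passed. Over 342 alternatives to these values 325 kept direction and side and 13 lost the call, and over 501 that left out 1 array 480 kept both and 21 lost the call. Over all named gene values, also those that had not passed, 25 alternatives reversed the sign. Scaling to 1 median turned PDTC minus untreated for Odc1 to 0.106 in 2-day males (array weights 0.021), 0.242 in 2-week males and 0.017 in 2-week females, Cebpb to 0.0076 in 2-week males and Gusb to 0.054 in adult males, and adult minus 2 weeks to -0.0034 for Ttc36 in males and to -0.481 for Fmo1, -0.122 for Ttc36 and -0.167 for Dio1 in females. Without slide 6, 2 weeks minus 2 days for Odc1 in males was 0.000727. Without 1 array, Odc1 ranged from -0.158 to 0.0057 (PDTC, 2-day males), -0.032 to 0.095 (PDTC, 2-day females), -0.050 to 0.523 (adult PDTC sexes) and -0.054 to 0.043 (males, 2 weeks minus 2 days), and Gusb from -0.212 to 0.102 (PDTC, adult males). The rise of Fmo1 in adult females lost its call without slide 6 and without 7 of 10 arrays.

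Counts of probes that passed moved more. With arrays scaled to 1 median 42 (untreated) and 35 (PDTC, 24 higher and 11 lower) passed between adult sexes in place of 157 and 88, 1218 (523 higher, 695 lower) and 1346 (798 higher, 548 lower) between 2 weeks and 2 days in place of 3231 and 3203, and the adult minus 2 weeks split was 911 higher and 5529 lower in males and 1147 and 6797 in females. In 1 fit of all 59 arrays 980 and 1321 passed between adult sexes, and 255, 138, 52 and 377 for PDTC in adult males, females, both and their difference, in place of 0. Array weights gave 373 for PDTC at 2 days in both sexes in place of 0, and leaving out untreated male 4 of 2 days gave 258. Leaving out 1 array gave 89 to 171 and 52 to 286 between adult sexes, the last without PDTC male 2. The causes were not tested.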
